A study of Mus musculus with 13 samples.

Results

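Abi3, Ms4a6d, Rin3, Bin1, Cd2ap, Ptk2b, Picalm, Zcwpw1, Celf1 and Fermt2 are 10 mouse counterparts of genes at human risk loci for late-onset Alzheimer disease. The loci are other than TREM2 and APOE. These 10 mouse genes were taken by name from the deposited table, which held all 10 among its 20971 genes. RNA was sequenced from the cortex of C57BL/6 mice aged 6 months. One group, APPPS1 (6 libraries), carries mutant human transgenes that include the amyloid precursor protein and are driven by the neuronal Thy1 promoter, so these mice deposit plaques while the risk genes themselves are the mouse alleles. The other group is labelled APPPS1;Apoe-/- (7 libraries), that is, with the same transgenes and without the mouse gene for apolipoprotein E, the main lipid carrier of the brain. By their labels both groups have the transgenes, and no group labelled as free of them enters the comparison. Each library is counted as 1 mouse in the series' design.

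Genetic risk for late-onset Alzheimer disease gathers in a small number of cell functions: the innate immune response of microglia, the handling of lipids, and the uptake and sorting of membrane cargo through clathrin-coated pits and early endosomes. Microglia are the resident macrophages of the brain and surround amyloid plaques, where a lipid-sensing programme that involves apolipoprotein E is switched on. Abi3, Ms4a6d and Rin3 are mainly microglial genes in the brain, while the other 7 are expressed by neurons or by many cell types. A human risk locus is often assigned to the gene nearest to the associated variant, so membership in the list does not show that a gene itself carries the risk.

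Apoe separated the libraries as labelled. With the gene intact, Apoe stood at 463 to 670 RPKM, and in the knockouts it stood at 4.01 to 6.35 RPKM. RPKM is the number of reads scaled by gene length and by library size, so levels of different genes can be set side by side. Replicates 2 and 5 of the APPPS1;Apoe-/- group, called here the low-App libraries, stood apart: App, to which transgene reads can align, was at 106 and 116 RPKM there and at 176 to 217 RPKM in the other 11. Thy1, whose promoter drives the transgenes, was at 52.2 and 56.9 RPKM there and at 172 to 245 RPKM elsewhere. For these 2 libraries, labelled APPPS1;Apoe-/-, both values go against the transgene part of the label, and results that rest on them are given with and without them. Depth moved with genotype: APPPS1 libraries had 28402328 to 77005806 alignments, those without Apoe 18455493 to 34538031. Of the 18 microglia markers none was at 0 in any library, and their summed level ran from 686.8 to 811.9 RPKM with Apoe and from 311.5 to 601.2 RPKM without it, with 311.5 and 353.0 RPKM in the low-App libraries. The summed level of 10 markers of striatal neurons, which a cortex dissection can carry, ran from 333.1 to 817.1 RPKM with Apoe and from 435.3 to 924.2 RPKM without it. Striatal markers thus moved with genotype too. With Apoe, replicate 3 was at 817.1 RPKM and the next highest library at 438.8 RPKM. Without Apoe, replicate 4 was at 435.3 RPKM and the next lowest at 489.3 RPKM. In whole tissue, fewer cells of a type and less RNA per cell cannot be told apart.

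Of the 10 risk genes, 2 fell in the absence of Apoe, 0 rose and 8 did not pass the test. Abi3 dropped to 61.0% of its APPPS1 mean and Zcwpw1 to 83.1%. The test was limma on log2(RPKM + 0.5) over the 13343 genes that averaged 0.5 RPKM or more, a filter that all 10 passed, and a gene was called at an adjusted p under 0.05. Over all genes tested, 8.23% were called: 4.74% lower and 3.48% higher. The median log2 change of the 10 genes was -0.03, beside -0.01 for all genes tested. Without the low-App libraries only Abi3 among the 10 was called lower, where 3.30% of all genes were, and the log2 changes of Ms4a6d, Rin3 and Bin1, which were not called, were 0.23, -0.04 and -0.23. With log2 alignments added as a covariate, 0 of the 10 and 0.989% of all genes were called lower. With the mean of the striatal markers as a covariate the figures were 0 of 10 and 1.36%.

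**Figure D1:**
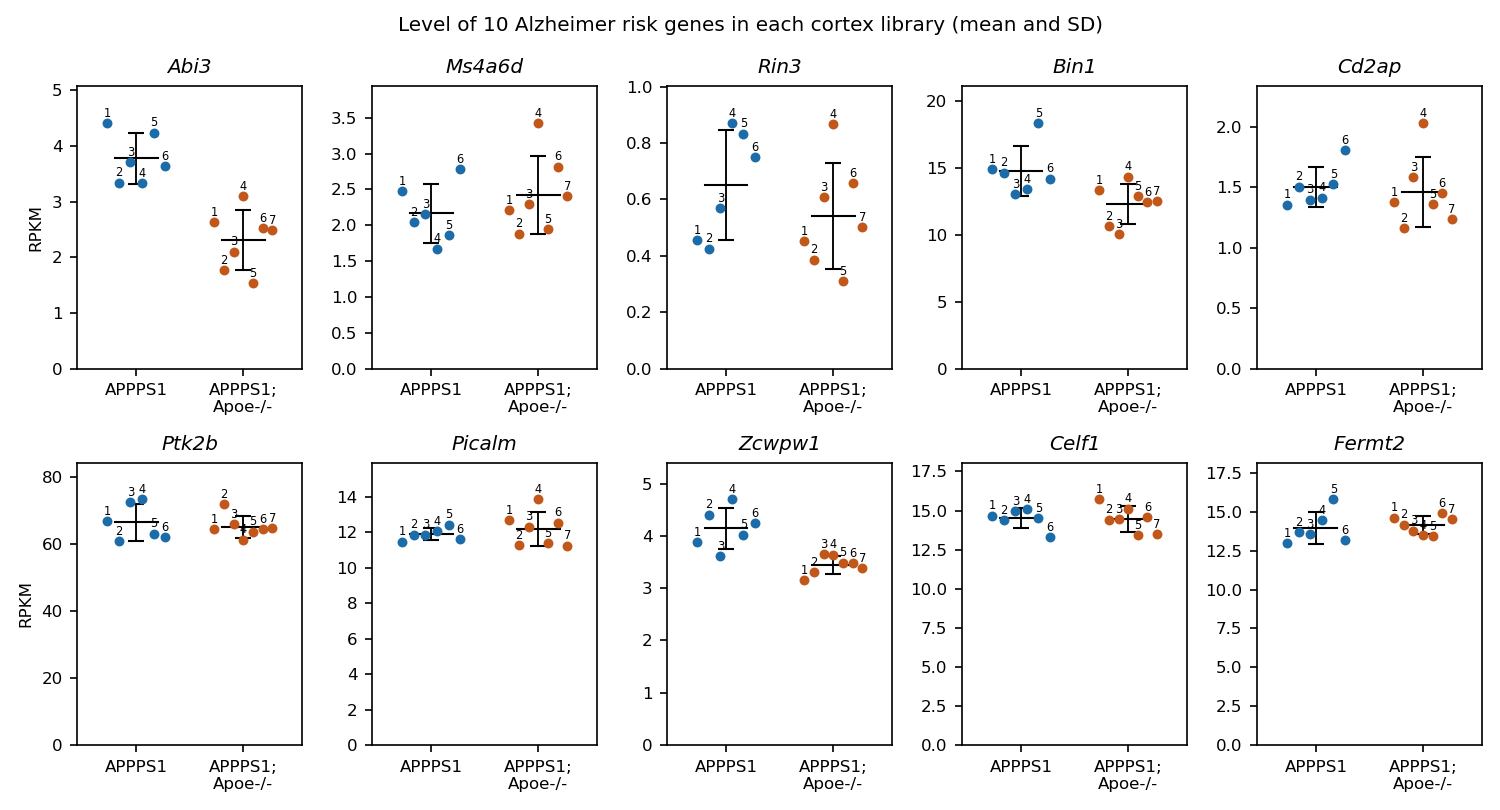
RPKM of each of the 10 risk genes (vertical axes, each starting at 0) in every library, by group on the horizontal axis; points carry the replicate number, and the bar and whiskers give the mean and SD (n = 6 and n = 7). The groups do not overlap for Abi3, where the 7 APPPS1;Apoe-/- libraries lie between 1.54 and 3.09 RPKM and the 6 APPPS1 libraries between 3.33 and 4.41 RPKM.

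Among the microglial genes, Abi3 lay lower in every library without Apoe. Abi3 (chr11:95830074-95842476, minus strand, mm10) encodes an Abl interactor, a subunit of the WAVE complex that drives branching of actin filaments. In the APPPS1 group its lowest, median and highest levels were 3.33, 3.67 and 4.41 RPKM. In the APPPS1;Apoe-/- group they were 1.54, 2.48 and 3.09 RPKM. All 7 libraries without Apoe thus lay below the lowest APPPS1 library, the low-App libraries being the lowest at 1.77 and 1.54 RPKM. Over all genes tested, 2.17% separated in this direction with no overlap and 1.54% in the other, and among the 10 risk genes only Abi3 did. The mean of Abi3 was 3.78 ± 0.455 RPKM (SD, n = 6) with Apoe and 2.31 ± 0.535 RPKM (SD, n = 7) without it. The log2 change of Abi3 was -0.63 ± 0.12 (SE; 95% interval -0.87 to -0.38; limma, adjusted p = 0.00413). Without the low-App libraries it was -0.48 (limma, adjusted p = 0.00694), and the groups again did not overlap. The call of Abi3 ended with the alignments covariate (-0.53, adjusted p = 0.0847, limma) and with the striatal covariate (-0.53, adjusted p = 0.0572, limma).

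Part of the Abi3 transcript is covered by genes on the other strand. In the GENCODE annotation, Gngt2, Phospho1 and Zfp652 run opposite to Abi3 and overlap it, and 66.65% of the 50-base windows of its transcripts also occur in theirs. Whether the reads were counted by strand is not given in the sources used here, so without strand these genes could exchange reads with Abi3. Gngt2, which encodes a gamma subunit of a G protein, averaged 9.18 ± 0.782 RPKM (SD, n = 6) with Apoe and 6.83 ± 1.78 RPKM (SD, n = 7) without it, a log2 change of -0.44 (limma, adjusted p = 0.0766). Its groups overlapped, and its lowest values, 3.68 and 5.14 RPKM, were those of the low-App libraries. Phospho1 and Zfp652 averaged 0.0539 and 0.613 RPKM with Apoe and 0.0570 and 0.595 RPKM without it. How far these genes enter the value of Abi3 was not tested.

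Ms4a6d did not pass the test, and its values lay in the opposite direction to those of Abi3. Ms4a6d (chr19:11586604-11604849, minus strand) encodes a membrane-spanning protein of the MS4A cluster of myeloid cells. Its lowest, median and highest levels were 1.67, 2.10 and 2.78 RPKM in the APPPS1 group. Without Apoe they were 1.88, 2.29 and 3.43 RPKM. The ranges overlapped, and 2 libraries without Apoe, replicates 4 and 6, stood above the highest APPPS1 library. The log2 change of Ms4a6d was 0.13 ± 0.12 (SE; 95% interval -0.12 to 0.38; limma, adjusted p = 0.539). Of the 50-base windows of Ms4a6d, 2.54% also occur in Ms4a6b or in unnamed models, so few reads could be split between these copies.

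Rin3 was the weakest of the 10 genes. Rin3 (chr12:102283048-102390855, plus strand) encodes a guanine nucleotide exchange factor for Rab GTPases of early endosomes. It ranged from 0.426 through a median of 0.660 to 0.872 RPKM in the APPPS1 group. In the APPPS1;Apoe-/- group the lowest, median and highest levels were 0.309, 0.503 and 0.868 RPKM. The groups overlapped over most of their span, although both low-App libraries, at 0.386 and 0.309 RPKM, lay below every APPPS1 library. The log2 change of Rin3 was -0.15 ± 0.13 (SE; 95% interval -0.42 to 0.13; limma, adjusted p = 0.517), and its sign turned with the striatal covariate (0.06).

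Set against the microglia markers of the same library, Abi3 kept its place and Ms4a6d, which did not fall, came to lie higher. The mean log2(RPKM + 0.5) of the 18 markers was subtracted from that of each gene, library by library. For Abi3 this difference averaged -2.26 ± 0.0998 (SD, n = 6) with Apoe and -2.34 ± 0.164 (SD, n = 7) without it, and the groups overlapped. For Ms4a6d it averaged -2.95 ± 0.256 (SD, n = 6) with Apoe and -2.27 ± 0.191 (SD, n = 7) without it. Its range was -3.30 to -2.61 with Apoe and -2.47 to -2.02 without it, with no overlap, and the shift was 0.67 with all libraries and 0.59 without the low-App libraries. The marker mean itself ran from 4.24 to 4.54 with Apoe and from 3.27 to 4.07 without it, so a gene that stays level rises on this scale: 42.5% of all genes tested, and 4 of the 10 risk genes (Ms4a6d, Picalm, Celf1 and Fermt2), separated upward with no overlap, and 42.6% of all genes did without the low-App libraries. The shift is not particular to Ms4a6d. For Rin3 the difference averaged -4.16 ± 0.218 (SD, n = 6) with Apoe and -3.76 ± 0.188 (SD, n = 7) without it, with overlap. These differences are descriptions and carry no p, since the genes were chosen with results known. Of the 18 markers 12 were called lower and 0 higher, beside 4.74% and 3.48% of all genes tested. Their median log2 change was -0.58, and those called include Irf8, Ptprc and Gpr34. The 6 not called were Tmem119 (-0.08), P2ry12 (-0.28), Sall1 (-0.29), Selplg (-0.35), Aif1 (-0.56) and C1qa (-0.61). All 18 estimates were below 0, from -0.89 to -0.08, so the marker mean joins changes of 1 direction and of unlike size. Of the 18, 10 were called lower without the low-App libraries (median -0.34), with the alignments covariate 1 and with the striatal covariate 2.

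**Figure D2:**
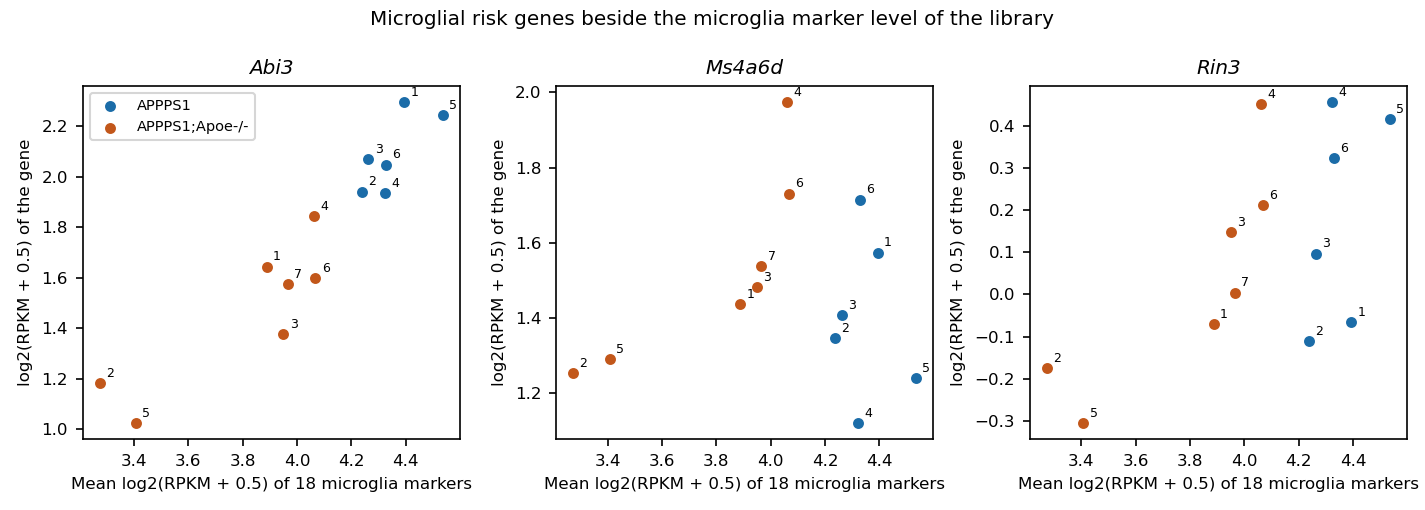
Log2(RPKM + 0.5) of Abi3, Ms4a6d and Rin3 (vertical axes) against the mean log2(RPKM + 0.5) of the 18 microglia markers in the same library (horizontal axes); each point is 1 library with its replicate number, coloured by group. Abi3 lies along 1 band that both groups share, while the APPPS1;Apoe-/- libraries of Ms4a6d sit at lower marker levels with Ms4a6d levels of the same span as in the APPPS1 libraries or above it.

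As a group, the microglial genes did not separate from the other 7 by genotype. Their mean log2(RPKM + 0.5) less that of the other 7 was -2.29 ± 0.113 (SD, n = 6) with Apoe and -2.43 ± 0.204 (SD, n = 7) without it. The ranges overlapped, from -2.44 to -2.13 and from -2.73 to -2.13, and the difference of -0.14 became -0.04 without the low-App libraries. Of the 3 microglial genes 1 was called lower, with a median log2 change of -0.15, and of the other 7 genes 1 was called lower, with a median of -0.03. Over all genes tested 4.74% were called lower, and the median was -0.01.

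Zcwpw1 was the called gene among the other 7. Zcwpw1 (chr5:137787798-137822621, plus strand) encodes a reader of histone methylation that is best known from meiosis. In the APPPS1 group its lowest, median and highest levels were 3.61, 4.13 and 4.70 RPKM. In the APPPS1;Apoe-/- group they were 3.15, 3.48 and 3.66 RPKM. The groups overlapped through 1 APPPS1 library, replicate 3, at 3.61 RPKM, and 5 of the 7 libraries without Apoe lay below it. Zcwpw1 averaged 4.14 ± 0.388 RPKM (SD, n = 6) with Apoe and 3.44 ± 0.180 RPKM (SD, n = 7) without it. The log2 change of Zcwpw1 was -0.23 ± 0.06 (SE; 95% interval -0.36 to -0.11; limma, adjusted p = 0.0254).

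The call of Zcwpw1 depended on which libraries were used. It ended when APPPS1 replicate 2, 4 or 6 or APPPS1;Apoe-/- replicate 1 was left out (limma, adjusted p = 0.0618, 0.0584, 0.0583 and 0.0522), and without both low-App libraries (-0.23, limma, adjusted p = 0.0735). With the striatal covariate the log2 change of Zcwpw1 was -0.14 (limma, adjusted p = 0.248), and with the alignments covariate -0.31 (limma, adjusted p = 0.0529). APPPS1 replicate 3, the lowest of its group for Zcwpw1, was also the highest of its group in summed striatal markers, at 817.1 RPKM, and the deepest, with 77005806 alignments. Pilra, a gene at the same risk locus that overlaps Zcwpw1 on the other strand, averaged 0.561 RPKM with Apoe and 0.398 RPKM without it and was under the filter.

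Promoters of the called gene Zcwpw1 and of the microglial Rin3 are shown because both loci have more than 1 annotated start, and because a myeloid motif can be read in them beside the expression values. They come from RefSeq on GRCm38.p6, from 250 bases before to 50 after a start. Promoters of 6 of the 10 genes were used: Rin3, Cd2ap, Picalm, Zcwpw1, Celf1 and Fermt2. None was used for Abi3, Ms4a6d, Bin1 or Ptk2b, so nothing is said here of the promoters of these genes. Capitals mark GAGGAA, the core of the motif bound by PU.1, or its reverse complement TTCCTC. The first 2 sequences are the upstream and downstream starts of Zcwpw1 (chr5:137787081-137787380 and chr5:137787552-137787851, plus strand), the last is a start of Rin3 (chr12:102282824-102283123, plus strand).
Zcwpw1 upstream start: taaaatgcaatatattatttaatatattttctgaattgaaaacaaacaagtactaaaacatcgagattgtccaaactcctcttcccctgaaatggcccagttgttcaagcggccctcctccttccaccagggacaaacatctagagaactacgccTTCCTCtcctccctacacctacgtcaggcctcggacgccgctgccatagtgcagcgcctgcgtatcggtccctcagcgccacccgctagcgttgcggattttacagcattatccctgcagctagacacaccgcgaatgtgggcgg
Zcwpw1 downstream start: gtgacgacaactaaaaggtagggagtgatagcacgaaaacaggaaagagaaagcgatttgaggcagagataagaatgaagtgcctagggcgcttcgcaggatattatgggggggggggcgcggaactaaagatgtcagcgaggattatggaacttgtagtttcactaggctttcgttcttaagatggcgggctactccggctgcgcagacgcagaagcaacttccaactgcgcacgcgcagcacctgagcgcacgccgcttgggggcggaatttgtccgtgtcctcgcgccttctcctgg
Rin3 start: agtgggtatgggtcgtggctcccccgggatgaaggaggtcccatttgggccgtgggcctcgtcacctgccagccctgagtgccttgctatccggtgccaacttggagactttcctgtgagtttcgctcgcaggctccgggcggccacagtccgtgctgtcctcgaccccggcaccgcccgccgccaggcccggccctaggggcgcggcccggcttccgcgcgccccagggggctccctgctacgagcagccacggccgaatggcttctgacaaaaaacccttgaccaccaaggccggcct
On either strand, 28.28% of the 32851 promoters of 300 bases in that table hold these letters. Of the 3 sequences only the upstream start of Zcwpw1 does, with 1 match on the minus strand, and Picalm, whose sequence is not shown, has 2 matches on the plus strand. A match describes the sequence and is not a binding site. Spi1, the gene for PU.1 and itself at a risk locus, averaged 0.425 ± 0.282 RPKM (SD, n = 6) with Apoe and 0.171 ± 0.114 RPKM (SD, n = 7) without it. Its groups overlapped, and it was under the filter and not tested.

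Bin1 came nearest to the threshold among the genes that were not called. Bin1 (chr18:32377230-32435737, plus strand) encodes an amphiphysin that bends membranes and is made by neurons and oligodendrocytes. Its lowest, median and highest levels were 13.1, 14.4 and 18.4 RPKM in the APPPS1 group. Without Apoe they were 10.04, 12.5 and 14.4 RPKM. Although 5 of the 7 libraries without Apoe lay below the lowest APPPS1 library, replicates 1 and 4 reached into the APPPS1 range. The log2 change of Bin1 was -0.25 ± 0.087 (SE; 95% interval -0.44 to -0.07; limma, adjusted p = 0.0837). Leaving out APPPS1;Apoe-/- replicate 4, the highest of its group at 14.4 RPKM, brought Bin1 past the threshold (-0.29, limma, adjusted p = 0.0410). Of 27 other settings this 1 alone called Bin1. Without APPPS1 replicate 5, the highest of its group at 18.4 RPKM, the change was -0.19 (limma, adjusted p = 0.168). Without the low-App libraries the adjusted p was 0.181 (limma). The lincRNA A830052D11Rik overlaps the start of Bin1 on the other strand and shares 4.93% of its 50-base windows; it averaged 0.858 RPKM with Apoe and 0.563 RPKM without it (limma, adjusted p = 0.0866).

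The other endocytic genes differed by less than the spread of the libraries. Picalm (chr7:90130213-90213465, plus strand), an adaptor that binds clathrin and phosphoinositides and lies 70.4 Mb from Apoe on the same chromosome, had a lowest, median and highest level of 11.5, 11.9 and 12.4 RPKM with Apoe. Without Apoe the levels of Picalm were 11.2, 12.3 and 13.8 RPKM, a span that enclosed the whole APPPS1 range. Its log2 change was 0.03 (95% interval -0.08 to 0.14; limma, adjusted p = 0.760). Cd2ap (chr17:42792951-42876665, minus strand) encodes a scaffold between membrane receptors and actin. The lowest, median and highest levels of Cd2ap were 1.36, 1.46 and 1.81 RPKM with Apoe and 1.16, 1.38 and 2.04 RPKM without it. Here too the range without Apoe enclosed the other, and the log2 change was -0.04 (95% interval -0.23 to 0.15; limma, adjusted p = 0.833).

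The kinase Ptk2b, the adhesion gene Fermt2 and the RNA-binding gene Celf1 had narrow intervals that included 0. Ptk2b (chr14:66153257-66281052, minus strand) encodes a calcium-sensitive kinase of the focal adhesion family that is abundant in forebrain neurons. Its lowest, median and highest levels were 61.0, 65.1 and 73.4 RPKM with Apoe and 61.4, 64.6 and 71.9 RPKM without it, nearly the same range. The log2 change of Ptk2b was -0.03 (95% interval -0.14 to 0.09; limma, adjusted p = 0.818). Fermt2 (chr14:45458795-45530118, minus strand), a kindlin that activates integrins, had a lowest, median and highest level of 12.998, 13.6 and 15.8 RPKM with Apoe and 13.4, 14.2 and 14.9 RPKM without it. The Fermt2 range without Apoe lay inside the other, with a log2 change of 0.02 (95% interval -0.09 to 0.13; limma, adjusted p = 0.846). Celf1 (chr2:90940382-91019497, plus strand), an RNA-binding protein that regulates splicing and translation, had a lowest, median and highest level of 13.3, 14.6 and 15.1 RPKM with Apoe and 13.4, 14.4 and 15.7 RPKM without it. Its groups overlapped almost fully (log2 change -0.00; 95% interval -0.11 to 0.10; limma, adjusted p = 0.969).

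**Figure D3:**
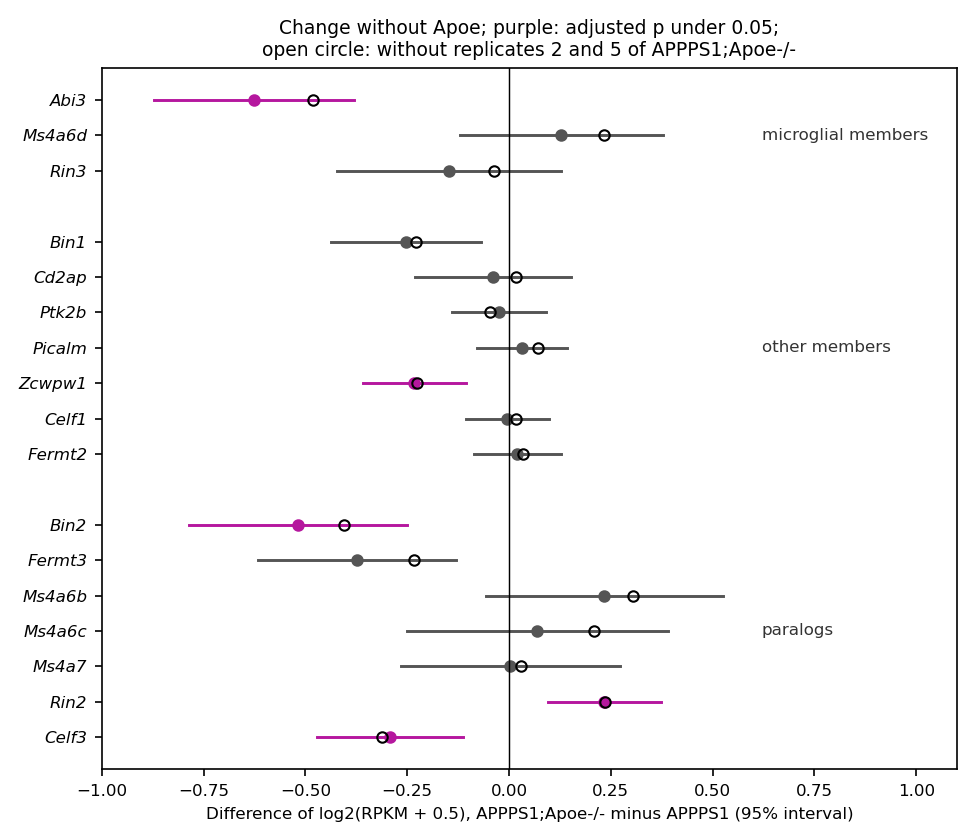
Difference of log2(RPKM + 0.5), APPPS1;Apoe-/- minus APPPS1 (horizontal axis), with its 95% interval for the 10 risk genes and 7 of their paralogs (vertical axis); purple marks an adjusted p under 0.05 (limma) and open circles the value without the low-App libraries. Abi3 at -0.63 and Zcwpw1 at -0.23 are the purple risk genes, and the open circle of Abi3 is at -0.48.

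By level, Ptk2b stood first in both groups, at 66.6 ± 5.42 RPKM (SD, n = 6) with Apoe and 65.3 ± 3.26 RPKM (SD, n = 7) without it. With Apoe, Ptk2b was followed by Bin1, Celf1 and Fermt2, whose neighbouring ranges overlapped, and then by Picalm, whose range met neither neighbour. Zcwpw1 and Abi3 came next and overlapped, as did Ms4a6d and Cd2ap after them, and Rin3 was last, below the range of Cd2ap. Without Apoe the order of Abi3 and Ms4a6d was exchanged, Ms4a6d averaging 2.43 RPKM and Abi3 2.31 RPKM with overlapping ranges, and Bin1 came after Celf1 and Fermt2, its range overlapping theirs. Within the group without Apoe, replicate 4 was the highest library for 6 of the 10 genes and replicate 5 the lowest for 4.

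The paralogs of the risk genes, other members of their protein families, were mostly not called. Of 20 tested paralogs 2 were called lower and 1 higher, with a median log2 change of -0.05. That is 15.0% of them, beside 8.23% of all genes tested. Bin2, the amphiphysin of leukocytes and microglia, averaged 2.53 ± 0.518 RPKM (SD, n = 6) with Apoe and 1.63 ± 0.368 RPKM (SD, n = 7) without it (log2 change -0.52, limma, adjusted p = 0.0192). The call of Bin2 ended without the low-App libraries (-0.40, limma, adjusted p = 0.0505) and with either covariate. Fermt3, the kindlin of leukocytes and microglia, averaged 4.98 RPKM with Apoe and 3.79 RPKM without it and missed the threshold (log2 change -0.37, limma, adjusted p = 0.0551), though it passed without APPPS1;Apoe-/- replicate 4 or 5 (limma, adjusted p = 0.0315 and 0.0373) and with array weights (0.0236). Of the MS4A relatives that lie beside Ms4a6d, Ms4a6b changed by 0.23 (limma, adjusted p = 0.307), Ms4a6c by 0.07 (adjusted p = 0.821) and Ms4a7 by 0.00 (adjusted p = 0.992). None of these 3 passed the test, and their groups overlapped. Celf3, a neuronal relative of Celf1, was lower (log2 change -0.29, limma, adjusted p = 0.0445), and Rin2, a relative of Rin3 made by endothelial and other cells, was higher (0.23, limma, adjusted p = 0.0380). Both calls ended without the low-App libraries (-0.31, adjusted p = 0.0545, and 0.24, adjusted p = 0.0806, limma) and with the alignments covariate (0.248 and 0.224), and that of Celf3 also with the striatal covariate (0.0810). When 1 library at a time was left out, the call of Celf3 ended in 10 of 13 fits and that of Rin2 in 8 of 13, with adjusted p up to 0.0992 and 0.0900 (limma).

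The partners of Abi3 and of the endocytic genes gave few calls. Of 10 tested WAVE complex genes, 1 was called lower and 0 higher, beside 4.74% and 3.48% of all genes tested. Groups with no overlap were found for 2.17% of all genes tested in the lower direction and 1.54% in the higher. A single call or separation in a list this short does not set the list apart from genes at large. The called gene was Nckap1l, the subunit of leukocytes and microglia, which ranged from 3.19 to 3.71 RPKM with Apoe and from 1.87 to 3.05 RPKM without it, with no overlap (log2 change -0.37, limma, adjusted p = 0.0304). Without the low-App libraries the change of Nckap1l was -0.23 (limma, adjusted p = 0.0515). Its call also ended without APPPS1 replicate 2, 3, 4 or 5 or APPPS1;Apoe-/- replicate 2 (limma, adjusted p from 0.0535 to 0.0621), and with the alignments and striatal covariates (0.276 and 0.231). Of 29 tested clathrin endocytosis genes, 0 were called lower and 1 higher, that is 3.45% of them, beside 8.23% of all genes tested. The median log2 change of these 29 genes was -0.06. The gene called higher was Eps15, a scaffold of forming coated pits. Eps15 ranged from 24.7 to 27.8 RPKM with Apoe and from 28.2 to 35.7 RPKM without it, again with no overlap. Its log2 change was 0.22 (limma, adjusted p = 0.0239), and 0.24 without the low-App libraries (limma, adjusted p = 0.0317). The call of Eps15 ended without APPPS1 replicate 1, 2 or 6 (limma, adjusted p = 0.0509, 0.0607 and 0.0514), and with the alignments and striatal covariates (0.0646 and 0.104).

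Other genes at or near Alzheimer risk loci were called about as often as genes at large. Of 66 listed, 63 were in the table and 53 were tested, of which 3 were called lower and 1 higher. That is 7.55% of them, beside 8.23% of all genes tested, and their median log2 change was -0.04. Grn, which encodes the lysosomal protein progranulin, fell from 57.6 ± 4.67 RPKM (SD, n = 6) to 40.6 ± 6.34 RPKM (SD, n = 7), with no overlap (log2 change -0.51, limma, adjusted p = 0.00391). Without the low-App libraries the change of Grn was -0.39 (limma, adjusted p = 0.00512). Blnk, an adaptor of immune receptor signalling, averaged 10.2 RPKM with Apoe and 7.09 RPKM without it (-0.47, limma, adjusted p = 0.0215). Ctsb, which encodes the lysosomal protease cathepsin B, averaged 293 and 259 RPKM (-0.18, limma, adjusted p = 0.0412). Wwox, a WW-domain oxidoreductase, was the gene called higher, at 13.3 and 16.0 RPKM (0.25, limma, adjusted p = 0.0340). The calls of Blnk, Ctsb and Wwox ended without the low-App libraries (limma, adjusted p = 0.0719, 0.113 and 0.108) and with either covariate. That of Blnk also ended without APPPS1 replicate 1 or 6 (limma, adjusted p = 0.0514 and 0.0536), and those of Ctsb and Wwox each in 10 of the 13 fits that left out 1 library. The call of Grn held in all 13 of these fits and ended with the alignments covariate (limma, adjusted p = 0.0754) and the striatal covariate (0.0543).

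Several well-known risk genes were not called. Plcg2, a phospholipase downstream of microglial receptors, changed by -0.31 (limma, adjusted p = 0.137), and Inpp5d, a phosphatase of the same cells, by -0.13 (limma, adjusted p = 0.538). Clu, the secreted chaperone clusterin, averaged 1015 RPKM with Apoe and 999 RPKM without it (-0.02, limma, adjusted p = 0.846). Sorl1, a sorting receptor for the amyloid precursor protein, changed by 0.05 (limma, adjusted p = 0.599).

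**Figure D4:**
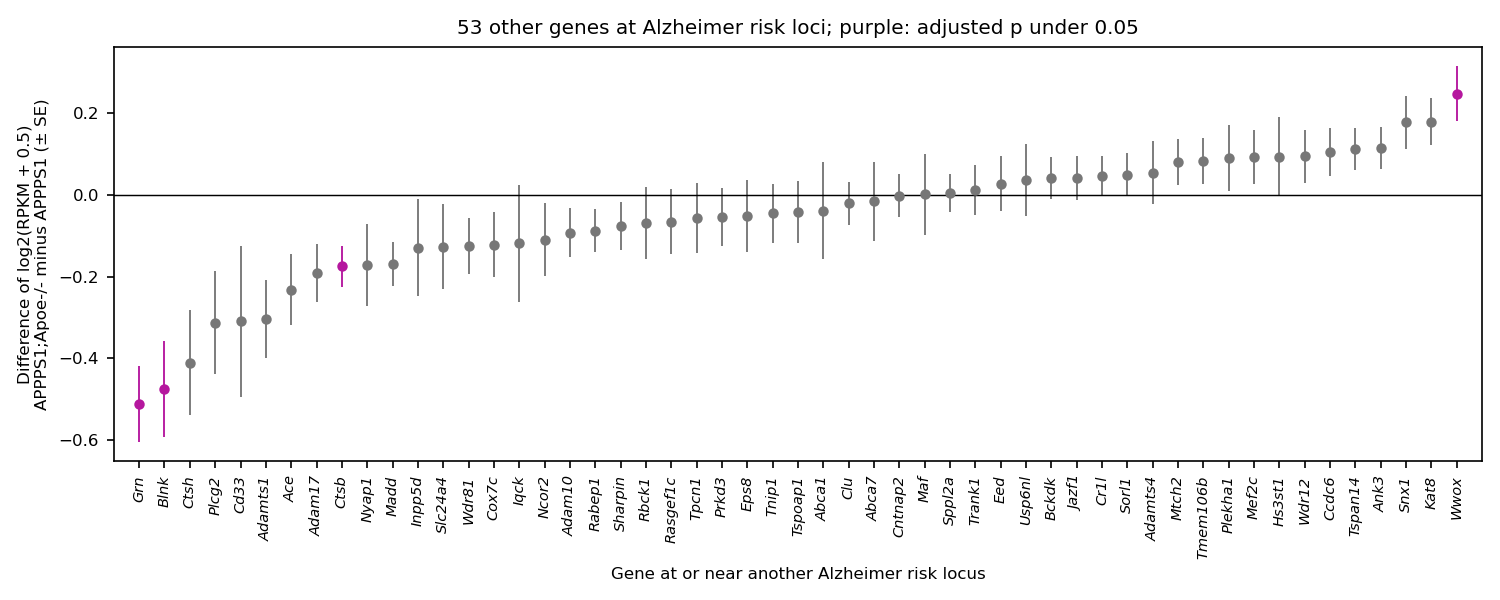
Difference of log2(RPKM + 0.5), APPPS1;Apoe-/- minus APPPS1 (vertical axis, points with SE), for the 53 tested genes at or near other Alzheimer risk loci, in order of the difference (horizontal axis); purple marks an adjusted p under 0.05 (limma). Grn at -0.51 is the lowest and Wwox at 0.25 the highest, and 49 of the 53 are not marked.

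Markers of other cell types that the dissection can hold were checked beside these genes. Over all genes tested 4.74% were called lower and 3.48% higher. The tested neuronal markers gave 1 call lower (Slc17a7) of 12, and their summed level, 3963 to 4582 RPKM with Apoe and 3914 to 4810 RPKM without it, overlapped between the groups. Astrocyte markers gave 2 calls lower (Gfap and Aqp4) and 1 higher (Gjb6) of 10. Oligodendrocyte markers gave 0 calls lower and 4 higher (among them Mal, Mog and Mobp) of 10, with a median log2 change of 0.27. Markers of oligodendrocyte precursors gave 0 calls of 5, and endothelial markers 1 lower (Kdr) and 1 higher (Ly6c1) of 10. Perivascular macrophage markers gave 1 higher (Stab1) of 4 tested, and blood leukocyte markers 1 higher (Cd4) of 3 tested. Striatal markers gave 1 higher (Pde10a) of 10, while all 10 estimates were above 0, with a median log2 change of 0.46. Without the low-App libraries 9 of these 10 estimates were above 0, with a median of 0.32. Leukocyte markers that include Cd3g, Cd8a and Plac8 were at 0 in at least 1 library. After leaving out the low-App libraries the calls of Gfap, Mal, Ly6c1 and Stab1 held, and those of Slc17a7, Aqp4, Gjb6, Mog, Mobp, Kdr, Cd4 and Pde10a ended. With the alignments covariate only Cd4 and Pde10a of these 12 genes were called, and with the striatal covariate only Ly6c1. Pde10a is itself part of the striatal covariate, so the loss of its call there carries no information. The part of these cells in the values of the 10 risk genes was not tested beyond the striatal covariate.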

How the data were processed

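Cortical RNA of 13 mice was sequenced. Per the labels' protocols, RNA was extracted with Trizol and prepared with the Clontech SMARTer kit, and the submitters' processing notes name Partek and mm10. The authors deposited RPKM per gene in 1 table, with a count of alignments per library. Which aligner, counting rule, strand setting and annotation served is not given in the sources used here, a gap that bears on genes with an overlapping neighbour. Sampling error is not stated with RPKM, and it is largest for weak genes such as Rin3.

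Values were transformed to log2(RPKM + 0.5). Genes averaging 0.5 RPKM or more (13343) entered a limma 3.58.1 fit in R 4.3.3 (eBayes with trend, genotype as the only term, two-sided), adjusted by Benjamini-Hochberg and called at an adjusted p under 0.05. Differences are APPPS1;Apoe-/- minus APPPS1 and understate the change of weak genes. Each p-value sets a difference against the spread of these samples within genotypes, with variances moderated across genes by eBayes. The code was tested on simulated data. Python 3.11.15 with pandas 2.3.3, numpy 2.4.6 and matplotlib 3.10.9 did the rest. Replicate numbers follow the order in which the samples are listed and pair nothing.

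Members and lists were chosen with earlier results of these data known. Named are the members, Apoe, App, a set of risk genes and microglial paralogs, and called genes of each list in order of adjusted p (at most 10 other risk genes, 6 paralogs, 4 of any other list). Some of these are not reported here. Genes that overlap a member were added for their position. Other pseudocounts, filters, scalings, variance models, weights, covariates (alignments, sex read from Xist and Y-linked genes, striatal markers) and left-out libraries were tried. Positions are those of GENCODE M21.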

Additional observations from a re-analysis of the deposited data

Results flagged for a closer look

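Within a genotype, 7 of 98 groups of values (1 gene in 1 genotype) had a highest or lowest library whose gap to the next one was a larger part of the range than expected for that group size; chance gives about 1 in 20. Bin1 was at 18.4 RPKM in APPPS1 replicate 5 and at 13.1 to 14.9 RPKM in the other APPPS1 libraries. The same library was highest for Ptprc, at 2.50 RPKM beside 1.52 to 1.78 RPKM, and for Stab1, at 0.949 RPKM beside 0.710 to 0.797 RPKM. In APPPS1 replicate 3, Cd4 was at 6.07 RPKM beside 1.16 to 1.90 RPKM and Pde10a, a striatal marker, at 10.8 RPKM beside 4.66 to 6.22 RPKM. In APPPS1;Apoe-/- replicate 4, Ms4a7 was at 1.08 RPKM beside 0.400 to 0.685 RPKM, and Wwox was lowest at 12.7 RPKM beside 16.2 to 17.1 RPKM. Of the 10 risk genes only Bin1 had such a library.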

How the results depend on the processing

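Abi3 kept its direction in all 27 other settings and its call in 24, with log2 changes from -0.71 to -0.48. Its call ended with the alignments covariate (-0.53), the striatal covariate (-0.53) and the alignments covariate without the low-App libraries (-0.475, adjusted p = 0.0519, limma). Zcwpw1 kept its direction in 27 settings and its call in 18; it missed the threshold after quantile normalization (-0.201, limma, adjusted p = 0.0509), without the low-App libraries (-0.226), with the alignments covariate (-0.308), with both together (-0.301) and with the striatal covariate (-0.144). The causes were not tested.

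Among all genes, 633 were called lower and 465 higher. With the alignments covariate the counts were 132 and 70, with the striatal covariate 181 and 118, and with the alignments covariate without the low-App libraries 197 and 84. Without the low-App libraries alone 237 were called higher. Quantile normalization gave 608 lower and 687 higher. The risk genes called lower numbered 1 after quantile normalization, 1 without the low-App libraries and 0 with either covariate or with the alignments covariate without these libraries.

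Leaving out 1 library at a time gave 435 to 853 genes lower, 276 to 741 higher and 1 to 3 risk genes lower. The highest counts came without APPPS1;Apoe-/- replicate 4 (853 and 741), and the counts of higher genes were lowest without APPPS1 replicates 6 and 2 (276 and 290). Log2 changes then ran from -0.689 to -0.552 for Abi3, -0.267 to -0.199 for Zcwpw1, -0.290 to -0.190 for Bin1, -0.103 to 0.00242 for Cd2ap, -0.0494 to 0.00352 for Ptk2b, -0.0278 to 0.0130 for Celf1, -0.0519 to 0.0132 for Clu, -0.0345 to 0.146 for Ms4a6c and -0.0858 to 0.0535 for Ms4a7.

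Signs of values near 0 turned in genes that were never called: Cd2ap was 0.0143 after quantile normalization, 0.0172 without the low-App libraries, 0.0792 with the striatal covariate and 0.0208 with the alignments covariate without these libraries. Celf1 was 0.000872 after median-of-ratios scaling, 0.0120 with array weights, 0.0168 without the low-App libraries, 0.0384 with the alignments covariate and 0.0397 with both. With the alignments covariate Ptk2b was 0.0143, Fermt2 -0.0203, Clu 0.0250 and Ms4a7 -0.0119. With this covariate and without the low-App libraries Fermt2 was -0.0220, Inpp5d 0.0210 and Clu 0.0388. With the striatal covariate Rin3 was 0.0575 and Inpp5d 0.0423. Ms4a7 was -0.00542 at a pseudocount of 0.1 and -0.0387 with array weights. For the other named genes, 698 values kept their direction and side of the threshold, 222 kept the direction and missed it, 3 newly passed it and 17 changed sign. Rin3 has no value at a filter of 1 RPKM. No paired analysis was possible because the labels give no replicate numbers that libraries of both groups share. Depth was lower without Apoe, and RPKM give no count behind a value.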

Other observations

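For each risk gene, the 2 tested genes whose pattern over the 13 libraries was most alike were found from log2(RPKM + 0.5), centred on the genotype mean and scaled to an SD of 1, by the root mean square difference, here in SD units. With 13343 genes searched over 13 libraries that share depth and tissue makeup, such likeness is a description. Picalm was nearest to Jak2 (0.324) and Erbb4 (0.326), and Cd2ap to Rc3h2 (0.402) and Erbb4 (0.481), so Erbb4, a neuregulin receptor, was named for both. Abi3 was nearest to Chsy1 (0.342) and Cdh20 (0.388), Ms4a6d to Tax1bp3 (0.414) and Prkg1 (0.449), and Rin3 to Cers6 (0.353) and Tjp1 (0.368). None of these 6 is on the microglia marker list. Bin1 was nearest to Sirt7 (0.348) and Sltm (0.352), and Ptk2b to Acadsb (0.396) and Chrm1 (0.397), a muscarinic receptor of neurons. Zcwpw1, Celf1 and Fermt2 had the more distant neighbours: Zmym6 (0.533) and Rapgefl1 (0.682) for Zcwpw1, Zfp182 (0.476) and BC006965 (0.554) for Celf1, and Slc19a3 (0.559) and Nrd1 (0.566) for Fermt2.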
